A study of Mus musculus with 9 samples.

Results

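The 10 genes described here carry the calcium cycle of the heart muscle cell and its electrical coupling: Atp2a2, Pln, Slc8a1, Casq2, Casq1, Ryr2, Ryr1, Cacna1c, Gja5 and Gja1. They were chosen by name, with earlier results of these data known. They were taken as the transcript clusters (probes grouped for 1 transcript) that the platform annotation assigns to a single one of these symbols. Each of the 10 had 1 such cluster, so they make up 10 of the 30050 genes measured. The RNA came from HL-1, an immortalised mouse line derived from atrial cardiomyocytes and grown in serum-containing medium, and was hybridised to 9 Affymetrix arrays. DOX+IFN-γ cells received 0.3 µM doxorubicin together with 20 ng/ml interferon gamma (3 arrays), DOX cells received 0.3 µM doxorubicin alone (3 arrays), and Con cells received phosphate-buffered saline (3 arrays). Doxorubicin is an anthracycline cancer drug known for its toxicity to the heart, and interferon gamma is an immune cytokine; how long the cells were treated is not stated in the labels. Whether the 3 arrays of a group came from separate cultures is not stated, and the p-values therefore reflect array-to-array spread that may be partly or wholly technical. All cells belong to 1 line, and no arrays with interferon gamma alone were analysed here.

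In a heart muscle cell, calcium entering through the L-type channel, whose pore is Cacna1c, opens the ryanodine receptor Ryr2 in the sarcoplasmic reticulum, and the calcium released there drives contraction. Casq2 holds calcium inside this store, the pump encoded by Atp2a2 refills it under the brake of phospholamban (Pln), and the exchanger Slc8a1 moves calcium out of the cell. Ryr1 and Casq1 are the forms of skeletal muscle, and Gja1 and Gja5 encode connexins, the channel proteins of gap junctions. Gja1 is the main connexin of working ventricular muscle, and Gja5 is found in the atria and the conduction system.

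Values are log2 expression values as deposited, so a difference of 1 is a 2-fold change. The word called is used for an adjusted p below 0.05 in limma over all 30050 genes. As a guide to dim probes, a receptor limit of 4.69 was used, the 95th percentile of the means of 1714 olfactory and vomeronasal receptor genes. By the mean of all arrays, 5 of the 10 genes lay above it (Atp2a2, Casq2, Casq1, Cacna1c and Gja5) and 5 did not (Slc8a1, Gja1, Pln, Ryr2 and Ryr1). Levels at or under the limit cannot be told from unexpressed probes, and changes of such genes can be understated.

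The arrays were alike in scale, with medians between 4.08 and 4.17, and the first principal component, with 60.1% of the variance, separated all Con arrays from all treated ones. On the next component the Con arrays scored 21.1, 11.3 and, for replicate 3, -23.5. Con replicate 1, all DOX arrays and DOX+IFN-γ replicates 1 and 2 form a set of 6 arrays. Its pairs share 82 to 186 exactly identical values, where all other pairs share 1 to 17. The labels give no reason. Within-set DOX minus Con differences are given below for the 5 called genes of the 10. For the list genes only counts of calls within the set are given, and for the cell type markers nothing is. Of 10 measured atrial cardiomyocyte markers, 2 (Tnnt2 and Nkx2-5) lay above the receptor limit, while Nppa, Myl7 and Myh6 lay below it, against 9 of 13 skeletal muscle, 5 of 7 fibroblast, 4 of 6 smooth muscle, 0 of 6 endothelial and 1 of 7 immune markers. Most of the measured atrial markers thus do not bear out the labelled cell type in these values. Of the heart genes among the 10, Atp2a2, Casq2, Cacna1c and Gja5 lay above the limit, and Slc8a1, Gja1, Pln and Ryr2 did not.

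Cells given doxorubicin carried less RNA of the calcium pump, the cardiac calsequestrin and the connexin Gja5 than Con cells, with and without interferon gamma. The sodium-calcium exchanger Slc8a1 and the connexin Gja1 were also called lower, but at levels near or under the receptor limit. In DOX minus Con, 5 of the 10 genes fell and 0 rose, where 7.53% of all genes were called lower and 15.6% were called in either direction. In DOX+IFN-γ minus Con the same 5 genes fell and 0 rose, where 9.41% of all genes were called lower and 17.4% in either direction. Of the 5 genes above the receptor limit, 3 fell in each comparison, where 15.7% and 19.6% of all genes above the limit did. The 10 genes were chosen with earlier results of these data known. These counts and shares are therefore descriptions and no test for an excess of falls. The median difference of the 10 was -0.19 in DOX minus Con, against -0.0149 over all genes, and -0.14 in DOX+IFN-γ minus Con, against -0.0153. All DOX arrays lay outside the range of the Con arrays in 6 of the 10 genes, 5 of them lower, against 32.9% of all genes (17.2% lower). For DOX+IFN-γ against Con this held for 5 of the 10, all lower, against 33% of all genes (18.5% lower). Both comparisons share the Con arrays and are not independent of each other. In these cultures fewer cells of a type and less RNA per cell cannot be told apart.

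**Figure D1:**
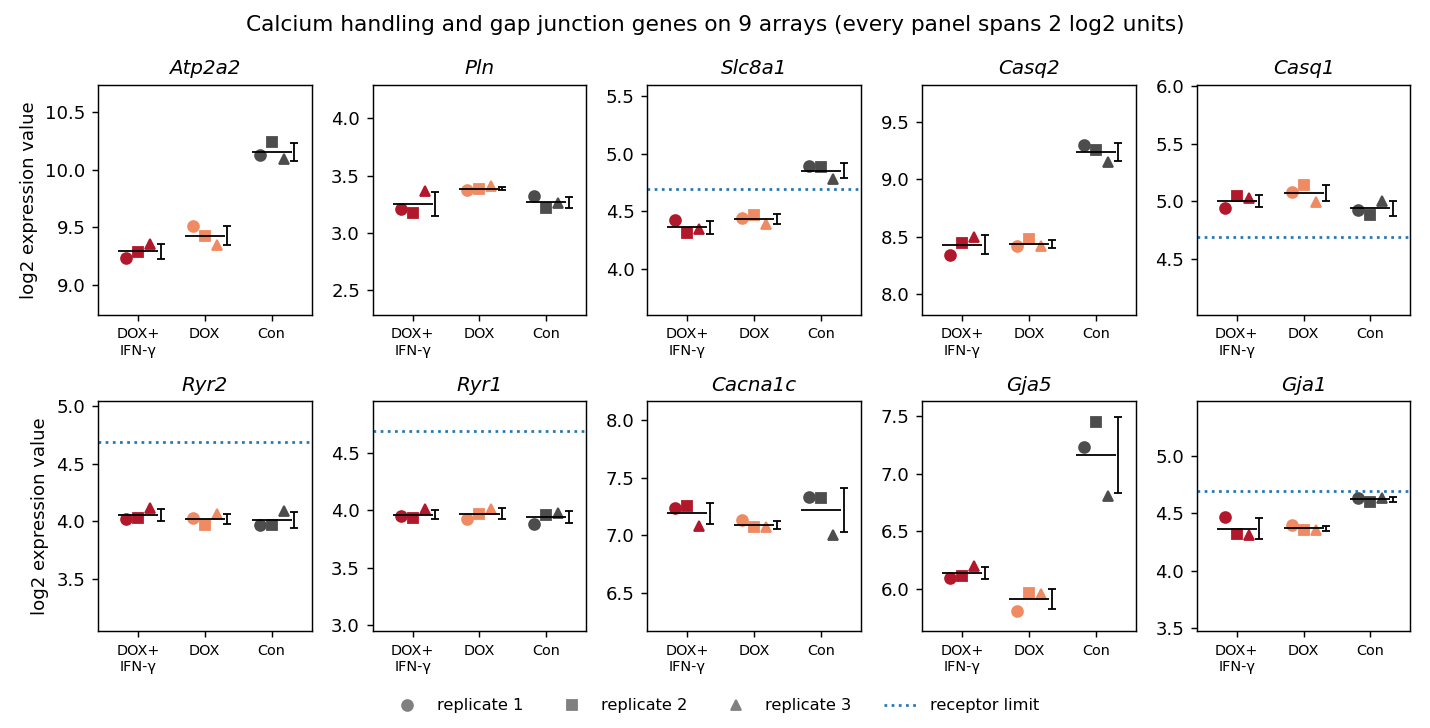
Log2 expression value (y axis) of the 10 genes on each array, by group (DOX+IFN-γ, DOX and Con), with a symbol per replicate number, a line at the group mean and a bar of ±1 SD (n = 3); the dotted line is the receptor limit of 4.69, drawn where it falls in the panel. In Atp2a2, Casq2, Slc8a1, Gja5 and Gja1 all treated arrays lie below all Con arrays, and the Con arrays of Gja5 spread from 6.80 to 7.45.

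The refilling pump Atp2a2 (Entrez Gene 11938, chromosome 5) lay at 9.23, 9.28 and 9.36 in DOX+IFN-γ cells and at 9.51, 9.43 and 9.34 in DOX cells, against 10.13, 10.24 and 10.09 in Con cells. All 6 treated arrays lay below all Con arrays, and the treated groups overlapped each other. In DOX cells it fell by 0.73 (SE 0.066, adjusted p = 0.00016), 1.66-fold lower. In DOX+IFN-γ cells it fell by 0.87 relative to Con (SE 0.066, adjusted p = 6.28e-05), 1.82-fold lower. Phospholamban (Pln, chromosome 10), which holds this pump back, was dim in every group, at 3.25 ± 0.10 in DOX+IFN-γ cells, 3.39 ± 0.02 in DOX cells and 3.27 ± 0.05 in Con cells (SD, n = 3 each). Its DOX minus Con difference of 0.12 was not called (adjusted p = 0.253), and its DOX+IFN-γ minus Con difference was -0.02 (adjusted p = 0.910).

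The exporter Slc8a1 (Entrez Gene 20541, chromosome 17) lay at 4.42, 4.31 and 4.35 in DOX+IFN-γ cells and at 4.44, 4.47 and 4.39 in DOX cells, against 4.89, 4.89 and 4.78 in Con cells. The Con arrays lay just above the receptor limit and the treated arrays below it, with no overlap. It fell by 0.42 in DOX cells (SE 0.055, adjusted p = 0.00116) and by 0.49 in DOX+IFN-γ cells (SE 0.055, adjusted p = 0.000474) relative to Con. Among the receptor genes themselves, 26 of 1714 were called in DOX minus Con and 29 in DOX+IFN-γ minus Con. Most of them have means under the limit and so below the Con level of Slc8a1. Their counts are therefore only a rough guide to calls at its level.

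In the calcium store, Casq2 (Entrez Gene 12373, chromosome 3) lay at 8.34, 8.45 and 8.50 in DOX+IFN-γ cells and at 8.42, 8.48 and 8.42 in DOX cells, against 9.30, 9.26 and 9.15 in Con cells. The groups with doxorubicin were close to each other and well apart from Con. Casq2 fell by 0.80 in DOX cells (SE 0.062, adjusted p = 7.28e-05), 1.74-fold lower, and by 0.81 in DOX+IFN-γ cells (SE 0.062, adjusted p = 6.37e-05), 1.75-fold lower. Its skeletal counterpart Casq1 (chromosome 1) lay at 4.95, 5.04 and 5.03 in DOX+IFN-γ cells and at 5.08, 5.14 and 4.998 in DOX cells, against 4.93, 4.88 and 5.01 in Con cells. These arrays overlapped, and neither the DOX minus Con difference of 0.13 (95% interval up to 0.27, adjusted p = 0.185) nor the DOX+IFN-γ minus Con difference of 0.07 (95% interval -0.07 to 0.20, adjusted p = 0.530) was called.

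The calcium release and entry channels were not called in any comparison. Ryr2 (chromosome 13), the release channel of the heart, lay between 3.97 and 4.12 on all arrays, and Ryr1 (chromosome 7), that of skeletal muscle, between 3.88 and 4.01, both well under the receptor limit. The 95% intervals of their DOX minus Con differences ran from -0.12 to 0.14 for Ryr2 and from -0.09 to 0.15 for Ryr1. Cacna1c (Entrez Gene 12288, chromosome 6), the pore of the L-type channel, was above the limit, at 7.23, 7.25 and 7.08 in DOX+IFN-γ cells and 7.13, 7.07 and 7.07 in DOX cells, against 7.33, 7.33 and 7.00 in Con cells. Con replicate 3 lay below every treated array, while the other Con arrays lay above them. The DOX minus Con difference of -0.13 was not called (95% interval -0.34 to 0.09, adjusted p = 0.464). Without Con replicate 3 it was -0.24 (adjusted p = 0.0502), and the DOX+IFN-γ minus Con difference was -0.14 (adjusted p = 0.230) instead of -0.03 (adjusted p = 0.895).

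Of the connexins, Gja5 (Entrez Gene 14613, chromosome 3) had the largest difference among the 10 genes. It lay at 6.09, 6.11 and 6.20 in DOX+IFN-γ cells and at 5.80, 5.96 and 5.95 in DOX cells, against 7.23, 7.45 and 6.80 in Con cells. The groups did not overlap, and the Con arrays varied more (SD 0.33) than the DOX+IFN-γ (0.05) or DOX (0.09) arrays. Gja5 fell by 1.25 in DOX cells (SE 0.143, adjusted p = 0.000538), 2.39-fold lower, and by 1.03 in DOX+IFN-γ cells (SE 0.143, adjusted p = 0.00142), 2.04-fold lower. Con replicate 3 held the lowest Con value, and without it the differences were -1.43 and -1.20.

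Gja1 (Entrez Gene 14609, chromosome 10) was dim, at 4.47, 4.32 and 4.31 in DOX+IFN-γ cells and 4.40, 4.36 and 4.36 in DOX cells, against 4.63, 4.59 and 4.64 in Con cells. Every value lay under the receptor limit, and the treated arrays did not overlap the Con arrays. Gja1 fell by 0.25 in DOX cells (SE 0.055, adjusted p = 0.0160) and by 0.25 in DOX+IFN-γ cells (SE 0.055, adjusted p = 0.0137), 1.19-fold lower in each. Its DOX call depended on single arrays, with an adjusted p of 0.0568 when DOX replicate 2 was left out and 0.0510 when DOX replicate 3 was, and so did its DOX+IFN-γ call (0.0568 when DOX+IFN-γ replicate 2 was left out). Within the set of 6 arrays, which holds 1 Con array, the differences were of like size, -0.26 for DOX and -0.24 for DOX+IFN-γ, and were not called (adjusted p = 0.148 and 0.207).

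**Figure D2:**
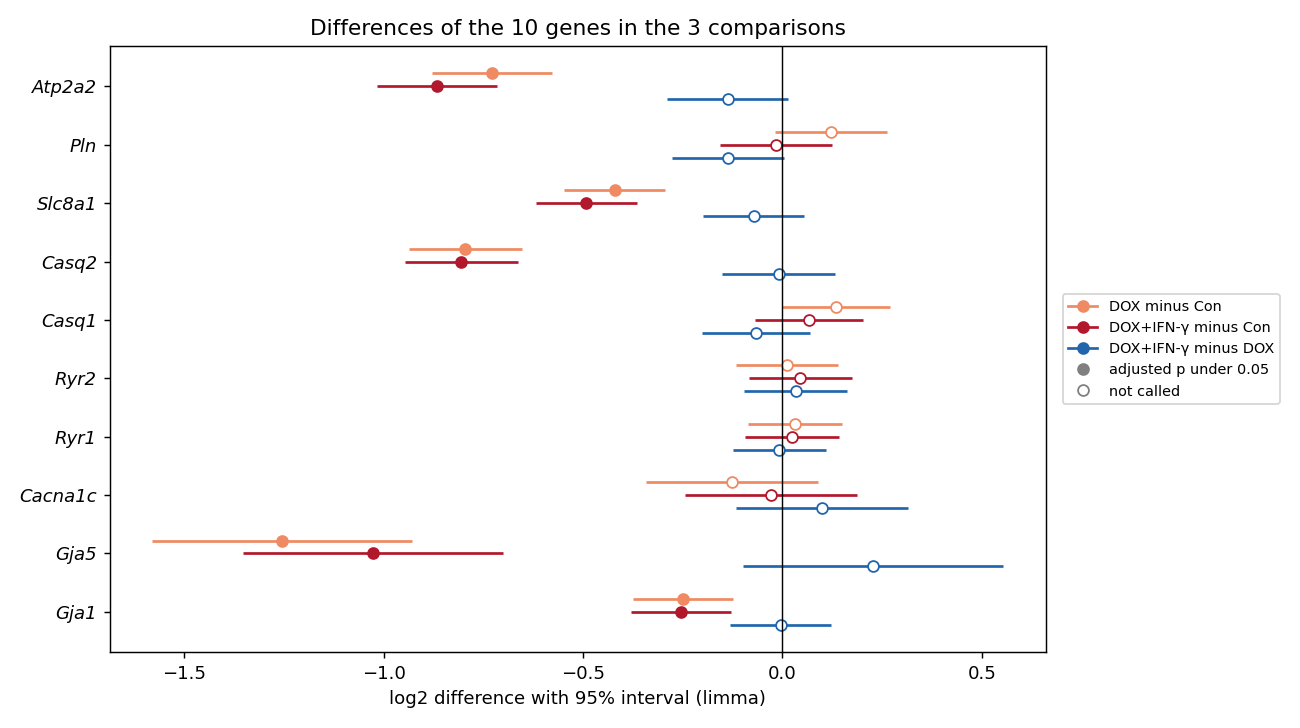
Log2 difference (x axis) of each of the 10 genes in DOX minus Con, DOX+IFN-γ minus Con and DOX+IFN-γ minus DOX; points are limma estimates, lines their 95% intervals, and filled points have an adjusted p under 0.05. The 5 called genes lie left of 0 in both comparisons with Con, from -0.25 for Gja1 to -1.25 for Gja5, and no filled point stands in DOX+IFN-γ minus DOX.

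Within the set of 6 arrays, which holds 2 DOX+IFN-γ, 3 DOX and 1 Con array, the DOX minus Con differences were -0.70 for Atp2a2, -0.86 for Casq2, -0.46 for Slc8a1 and -1.32 for Gja5. With 1 Con array the spread there comes from the treated arrays alone, and the Con array is assumed to vary like them; on that assumption the adjusted p in limma lay between 0.0030 and 0.0325. Con replicate 3 was the lowest Con array in 5 of the 10 genes, namely Atp2a2, Casq2, Slc8a1, Cacna1c and Gja5. It was also the lowest in Tnnt2, cardiac troponin T, and the highest in Myog, a myogenic transcription factor, and in the skeletal actin Acta1. Other markers went the other way: it was the highest in the atrial marker Nkx2-5 (5.47, against 5.35 and 5.33). In the skeletal marker Myod1 it was the lowest (5.93, against 5.94 and 6.20).

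Interferon gamma on top of doxorubicin gave no call among the 10 genes. In DOX+IFN-γ minus DOX, limma called 0 of the 10 genes and 0 of all 30050 genes (0%), and an unadjusted p under 0.05 was reached by 0 of the 10 and by 1503 of all genes. In 2 of the 10 genes, 1 of them lower, all DOX+IFN-γ arrays lay on one side of all DOX arrays, which held for 11.2% of all genes (6.69% lower). Gja5 was one of them, 0.23 higher in DOX+IFN-γ than in DOX cells (95% interval -0.10 to 0.55, adjusted p = 0.977), and the dim Pln the other, with a difference of -0.14 (adjusted p = 0.976). For Atp2a2 the difference was -0.14 (95% interval -0.29 to 0.01, adjusted p = 0.976) and for Casq2 it was -0.01 (95% interval -0.15 to 0.13, adjusted p = 0.998).

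Because these genes fell together, the sequences in front of their start sites are shown for the 4 called genes with a window in RefSeq's GRCm38.p6 table. Windows of 300 bases (250 before and 50 after the start) were found for 9 of the 10 genes, with Atp2a2 unmatched, and which start HL-1 cells use was not measured. Capitals mark matches on either strand to 4 motifs: the E-box CANNTG, bound by basic helix-loop-helix factors, the AP-1 site TGANTCA, and the MEF2 site and the CArG box, muscle motifs given here by name.
Casq2, chr3:102086165-102086464, plus strand: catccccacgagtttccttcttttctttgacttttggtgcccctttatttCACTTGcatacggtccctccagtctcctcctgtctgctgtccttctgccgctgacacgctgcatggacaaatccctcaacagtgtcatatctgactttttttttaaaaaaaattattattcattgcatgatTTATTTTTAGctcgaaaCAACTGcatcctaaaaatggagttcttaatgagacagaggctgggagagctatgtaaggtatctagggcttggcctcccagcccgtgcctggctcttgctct
Gja5, chr3:97032152-97032451, plus strand: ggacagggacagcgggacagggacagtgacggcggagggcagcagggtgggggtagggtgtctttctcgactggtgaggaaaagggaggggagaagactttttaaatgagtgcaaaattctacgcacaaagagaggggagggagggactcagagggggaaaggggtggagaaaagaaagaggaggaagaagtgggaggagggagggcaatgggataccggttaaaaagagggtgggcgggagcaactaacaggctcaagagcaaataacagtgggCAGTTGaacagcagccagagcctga
Gja1, chr10:56377050-56377349, plus strand: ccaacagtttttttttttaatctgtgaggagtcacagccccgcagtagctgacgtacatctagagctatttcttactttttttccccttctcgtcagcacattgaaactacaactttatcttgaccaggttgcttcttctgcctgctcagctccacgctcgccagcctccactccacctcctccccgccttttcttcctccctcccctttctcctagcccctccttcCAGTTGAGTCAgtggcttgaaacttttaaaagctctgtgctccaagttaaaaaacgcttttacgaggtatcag
Slc8a1, chr17:81738338-81738637, minus strand: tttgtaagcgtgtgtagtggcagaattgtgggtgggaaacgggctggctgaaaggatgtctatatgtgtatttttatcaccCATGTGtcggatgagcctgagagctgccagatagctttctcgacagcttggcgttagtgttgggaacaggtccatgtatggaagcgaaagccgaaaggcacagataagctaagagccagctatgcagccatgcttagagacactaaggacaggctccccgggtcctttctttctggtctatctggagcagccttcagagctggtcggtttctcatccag
In Casq2 the capitals mark a MEF2 match from base -69 to -60 and E-boxes at -200 and -52, counted from the start site. In Gja1 an E-box from -23 to -18 overlaps an AP-1 match from -19 to -13. Gja5 held 1 E-box at 26 after the start and Slc8a1 1 at -169, and a CArG match was found in 0 of these windows. Of all 32851 promoter windows, 72.3% held an E-box, 7.81% an AP-1 match, 3.19% a MEF2 match and 1.63% a CArG match. E-boxes also stood in the windows of Pln, Ryr2, Casq1 and Cacna1c, which were not called, and Ryr1 had none of the 4 motifs.

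Other genes of calcium handling and cell junctions included calls in both directions. Of 72 measured genes in 6 lists, 13 rose, 7 fell and 52 were not called in DOX minus Con, where 8.06% of all genes rose and 7.53% fell, and 10 rose, 6 fell and 56 were not called in DOX+IFN-γ minus Con, where 8.01% of all genes rose and 9.41% fell. The falls, 9.72% and 8.33% of the 72, were near those shares, while the rises were larger shares of the 72 than of all genes. The lists, too, were chosen with earlier results of these data known, so the shares are descriptions. The median DOX minus Con difference of the 72 was 0.03. The DOX minus Con calls of 9 of the 20 genes held under the other processing choices and with any 1 array left out, though not all of them in a fit of the set of 6 arrays alone: Atp2a1, Atp2a3, Cacna1s, Stim1, Mcu, Micu2, Vdac1, Pkp2 and Vcl.

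In the list of the sarcoplasmic reticulum store and release, 2 of 15 genes rose and 3 fell in DOX cells. The other pumps of the family were called higher where Atp2a2 was called lower. Atp2a3, the form of blood and endothelial cells, averaged 4.64 ± 0.04 in DOX cells and 4.20 ± 0.01 in Con cells (0.44, SE 0.05, adjusted p = 0.000309). Atp2a1, the form of fast skeletal muscle, averaged 4.98 ± 0.05 in DOX cells and 4.70 ± 0.05 in Con cells (0.28, adjusted p = 0.00516). Both are near the receptor limit, so the sizes of these rises are uncertain. Atp2a3 lay under the limit on every array, where levels cannot be told from those of unexpressed probes. The falls were those of calumenin Calu (-0.41), the ryanodine receptor partner Fkbp1a (-0.37) and the calcium-binding chaperone Calr (-0.34). Calr lost its call under quantile normalization (adjusted p = 0.631), and Calu on leaving out any 1 array but Con replicate 3 and DOX+IFN-γ replicate 1. Fkbp1a lost its call when replicate 2 or 3 of Con, or replicate 1 or 3 of DOX, was left out. The call of Fkbp1a was also lost with the set of arrays as a covariate.

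At the plasma membrane, 5 of 15 genes rose and 1 fell. Among those that rose were the calcium store sensors Stim1 (0.57, SE 0.11, adjusted p = 0.00859) and Stim2 (0.34, SE 0.07, adjusted p = 0.00850), and the calcium channel Orai1 (0.35, SE 0.09, adjusted p = 0.0325). Orai1 was not called in DOX+IFN-γ minus Con (0.24, adjusted p = 0.111). Stim1 averaged 7.36 ± 0.18 in DOX cells and 6.79 ± 0.08 in Con cells. Cacna1s, the L-type pore of skeletal muscle, rose by 0.33 to 4.88 ± 0.06 in DOX cells, against 4.55 ± 0.02 in Con cells (adjusted p = 0.00403). Cacna2d1, an auxiliary subunit of the L-type channel, fell by 0.96 (SE 0.24, adjusted p = 0.0285), with Con values of 7.49, 7.23 and 6.55. That call ended when replicate 1 or 2 of Con or any 1 DOX array was left out, and that of Orai1 when any 1 DOX array or DOX+IFN-γ replicate 2 was. Stim2 was lost with the set of arrays as a covariate (adjusted p = 0.0540), and so was Orai1. The DOX+IFN-γ call of Stim1 was lost without DOX+IFN-γ replicate 2 (adjusted p = 0.0509).

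**Figure D3:**
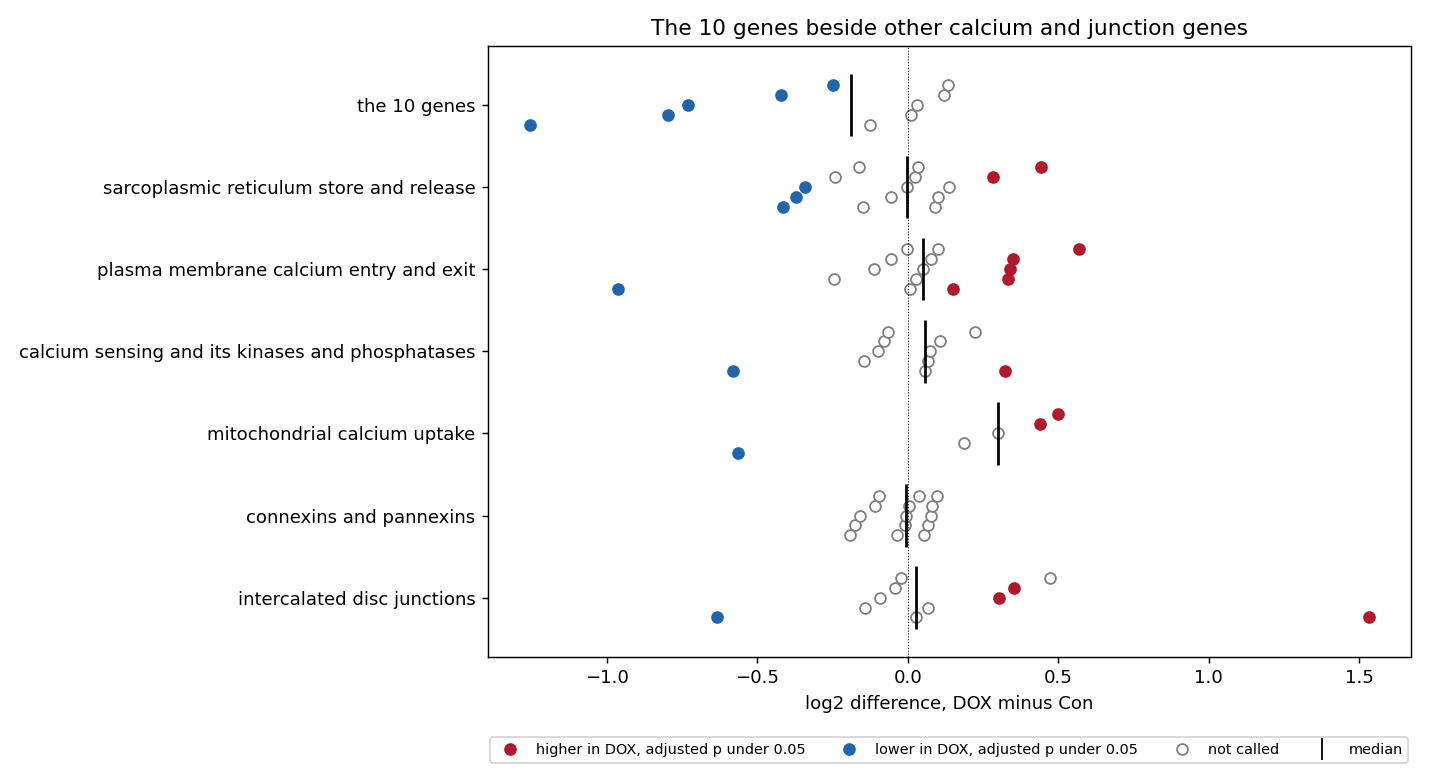
Log2 difference of DOX minus Con (x axis) for the 10 genes and for the measured genes of 6 lists of calcium handling and cell junctions, 1 point per gene, red where called higher in DOX, blue where called lower, open where not called; a vertical bar marks each median. The 10 genes hold 5 called lower and 0 called higher, while the 6 lists together hold 7 called lower and 13 called higher, with Pkp2 at 1.53.

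Of 5 genes of mitochondrial calcium uptake, 2 rose and 1 fell. The uniporter pore Mcu rose by 0.44 (SE 0.06, adjusted p = 0.00139) and its gatekeeper Micu2 by 0.50 (SE 0.08, adjusted p = 0.00246), while the outer membrane channel Vdac1 fell by 0.56 (SE 0.07, adjusted p = 0.00114). In DOX+IFN-γ minus Con the call of Micu2 (0.33) ended when replicate 1 or 3 of Con, or replicate 1 or 2 of DOX+IFN-γ, was left out. Of 11 genes of calcium sensing and its kinases, the calmodulin-dependent kinase Camk2d rose by 0.32 (adjusted p = 0.0271) and the catalytic subunit of protein kinase A, Prkaca, fell by 0.58 (adjusted p = 0.0203). Camk2d was not called when replicate 2 or 3 of Con, or replicate 1 or 2 of DOX, was left out, nor Prkaca when any 1 DOX array was. With the set of arrays as a covariate neither Camk2d nor Prkaca was called in DOX minus Con.

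Among the other connexins and pannexins, limma called 0 of 15 in DOX minus Con (2 at an unadjusted p under 0.05), and 1 of the 15, Gjc1, lay above the receptor limit. Of 11 intercalated disc genes, 3 rose and 1 fell. Pkp2, plakophilin of the desmosome, lay at 6.23, 6.68 and 6.57 in DOX+IFN-γ cells and at 6.63, 6.81 and 6.39 in DOX cells, against 5.18, 5.04 and 5.03 in Con cells. It rose by 1.53 in DOX cells (SE 0.14, adjusted p = 0.000141), 2.89-fold, and by 1.41 in DOX+IFN-γ cells (adjusted p = 0.000205). Vinculin (Vcl), an anchor of actin at adherens junctions, fell by 0.63 (SE 0.08, adjusted p = 0.000828). Plakoglobin (Jup, 0.35) and desmin (Des, 0.30) were called higher in DOX minus Con, and neither was called in DOX+IFN-γ minus Con. The mean of Des over all arrays, 4.55, lay under the receptor limit. Jup was not called when any 1 Con array, replicate 1 or 2 of DOX, or DOX+IFN-γ replicate 2 was left out. Des was not called when replicate 1 or 2 of Con or of DOX was left out, nor with the set of arrays as a covariate.

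Markers of muscle moved beside these falls. The mean log2 level of the 13 skeletal muscle markers lay between 4.92 and 4.998 on DOX+IFN-γ arrays and between 4.99 and 5.06 on DOX arrays, against 5.35 to 5.49 on Con arrays. In DOX minus Con 5 of the 13 fell, Myog most (-3.42, SE 0.14, adjusted p = 5.57e-06), and 3 rose. Those that rose were Myod1 (0.76), Actn3 (0.35) and Cacna1s (0.33). Myod1 was not called when replicate 1 or 3 of Con, or replicate 1 or 2 of DOX, was left out. The median difference of the 13 was -0.11, and 7.53% of all genes were called lower and 8.06% higher. The 10 atrial markers averaged 4.54 to 4.56 on DOX+IFN-γ arrays and 4.53 to 4.59 on DOX arrays, against 4.67 to 4.70 on Con arrays, but 1 of the 10 was called in DOX minus Con, Tnnt2, which fell by 1.24 (SE 0.09, adjusted p = 5.32e-05), and the median difference of the 10 was 0.0092. The 7 fibroblast markers averaged 8.63 to 8.73 on DOX+IFN-γ arrays and 8.66 to 8.68 on DOX arrays, against 8.95 to 9.22 on Con arrays. Of these 7, the collagens Col1a1 (-1.13), Col1a2 (-1.03) and Col3a1 (-1.87) fell and the collagen receptor Ddr2 rose (0.91, adjusted p = 0.00281). The 6 smooth muscle markers averaged 7.98 to 8.08 on DOX+IFN-γ arrays and 8.05 to 8.16 on DOX arrays, against 8.31 to 8.41 on Con arrays, with Cnn1 (-1.29) and Acta2 (-0.47) falling and Smtn rising (0.36). Col1a1 was not called under quantile normalization (adjusted p = 0.0522), and Acta2 neither there nor with the set of arrays as a covariate (adjusted p up to 0.707). Endothelial markers lay under the receptor limit in 6 of 6 cases. The part of these shifts in the falls of the 10 genes was not tested.

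The genes whose pattern over the 9 arrays was most like that of the called genes above the limit were found among 7618 other protein-coding genes above it. For Atp2a2 these were Creb3l2 (Pearson r 0.996), Rnf122 (0.993) and Acly (0.993), for Casq2 they were Pxdn (0.997), Glg1 (0.997) and Sim2 (0.997), and for Gja5 they were Tfrc (0.991), Rgl1 (0.989) and Dpy19l3 (0.988). All 9 points are shared and lie in 3 groups, so such values are descriptions, and many genes reached them: 976 genes correlated above 0.9 with Atp2a2, 1014 with Casq2 and 681 with Gja5.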

How the data were processed

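The values analysed are the authors' deposited log2 expression values, 1 for each transcript cluster on each array. They were summarised with RMA according to the submitters' processing notes, which name no version; that they are log2 follows from their range (2.29 to 19.9). RMA compresses differences of dim probes. No further normalization was applied.

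Of 65527 clusters, 30376 had a single annotation symbol, giving 30050 genes, the highest-mean cluster standing for 245 genes with several. Group means were fitted to all 9 arrays with limma 3.58.1 (lmFit, eBayes) in R 4.3.3. Tests were two-sided, with Benjamini-Hochberg adjustment over the 30050 genes and no filter on dim genes. The median 95% interval was ±0.19, a precision set by having 3 arrays per group. The procedure was tested on simulated data. The members, lists and alternatives were chosen with earlier results of these data known. From each list, up to 5 called genes with the largest DOX minus Con difference are named. Samples were grouped by their labels. Alternatives covered normalization, filters, genes tested, prior, samples, replicate block, sets of arrays, cluster choice and single arrays left out.

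Of the listed genes and markers, 17 had no cluster with their symbol alone and were not analysed here. Promoter sequences and chromosomes came from RefSeq tables of GRCm38.p6.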

Additional observations from a re-analysis of the deposited data

How the results depend on the processing

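With the other processing choices and with single arrays left out, the values of the 10 genes kept any called direction and their side of the threshold in 162 of 165 cases for DOX minus Con, 164 of 165 for DOX+IFN-γ minus Con and 165 of 165 for DOX+IFN-γ minus DOX. The exceptions were those of Gja1 given above and its DOX minus Con value when all 65527 clusters were tested (-0.25, adjusted p = 0.0560). With only genes above the receptor limit tested, 3 of the 10 were called in each comparison with Con, because 5 were left out. Leaving out single arrays gave 4 to 5 called in either comparison with Con. In DOX+IFN-γ minus DOX 0 were called throughout, and over all genes 1 was called without Con replicate 3. For the 72 list genes, DOX minus Con calls were 13 with all clusters tested, 13 with the set of arrays as a covariate, 11 to 19 without single arrays (11 without DOX replicate 1, 12 without DOX replicate 2, 13 without Con replicate 2) and 8 within the set of 6 arrays (a fit chosen after seeing the data), against 20. The DOX+IFN-γ minus Con calls were 10 to 16 without single arrays (10 without DOX+IFN-γ replicate 2) and 9 within that set, against 16. Within the other 3 arrays limma called 0 of the 10 genes (3 at an unadjusted p under 0.05) and 0 list genes (9 unadjusted), with 1 residual degree of freedom; they hold no DOX array. With the replicate block 5 of the 10 genes were called in each comparison with Con, and 16 and 15 list genes. Deviations of same-numbered arrays from different groups correlated between -0.16 and 0.36, and those of differently numbered arrays between -0.40 and 0.28. The highest values were those of Con with DOX+IFN-γ for replicate 1 (0.36) and replicate 3 (0.33). With ranges that overlap and 3 arrays per group, whether the numbers pair the arrays cannot be decided. Signal near the receptor limit restricts what can be said of Slc8a1, Gja1, Pln, Ryr1 and Ryr2.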
